A study of Mus musculus with 2 samples.

Results

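A set of 10 genes of lipid-laden phagocytes was followed through single cells of the inflamed mouse eye: Apoe, Fabp5, Lpl, Cd36, Plin2, Nceh1, Trem2, Gpnmb, Spp1 and Lgals3. They were chosen by symbol, and all 10 were found once each among the 31053 genes of the feature tables. The cells came from C57BL/6 mice that had received intraocular zymosan, a yeast cell wall preparation that draws leukocytes into the eye. There was 1 library from mice given aCXCR2 antiserum, directed at the chemokine receptor CXCR2 of neutrophils, and 1 library from mice given the serum that the labels call NRS. In both, cells of the vitreous fluid and of a retinal rinse were purified on Ly6G magnetic beads and captured with the 10x Chromium 3' kit. The number, age and sex of the mice are not given in the sources used here. As each group is 1 library, values have no replicates and were not tested. The 95% intervals below cover counting error only.

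Phagocytes that engulf dying cells or myelin must carry away the cholesterol and fatty acids they take in. Fatty acids enter through Cd36 and are bound by Fabp5, excess lipid is stored in droplets coated by Plin2, Nceh1 and lysosomal lipases free cholesterol from its esters, and Apoe carries cholesterol out of the cell. Trem2, a lipid-sensing receptor of macrophages and microglia, is needed in mice for the full microglial state in which Lpl, Gpnmb and Spp1 are raised. In the central nervous system such cells appear after nerve injury and demyelination.

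Upstream regions of 4 genes are shown because Gpnmb and Nceh1 were high in a cluster of cells that was not macrophage-scoring, whereas Apoe and Trem2 were lower there than in macrophages. Gpnmb was high in part of the macrophages too. Each line gives the 250 bases before the annotated start from RefSeq (GRCm38.p6), 5' to 3' on the gene's strand, and capitals mark matches to a searched motif. Gpnmb lies on the plus strand at chr6:49036268-49036517, Nceh1 on the plus strand at chr3:27182754-27183003, Apoe on the minus strand at chr7:19699189-19699438 (the most upstream of its 3 starts), and Trem2 on the plus strand at chr17:48346151-48346400.
Gpnmb: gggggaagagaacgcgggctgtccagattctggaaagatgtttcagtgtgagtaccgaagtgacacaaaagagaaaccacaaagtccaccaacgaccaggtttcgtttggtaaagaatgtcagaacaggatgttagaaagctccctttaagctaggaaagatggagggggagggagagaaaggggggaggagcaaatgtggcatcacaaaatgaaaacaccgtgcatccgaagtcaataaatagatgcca
Nceh1: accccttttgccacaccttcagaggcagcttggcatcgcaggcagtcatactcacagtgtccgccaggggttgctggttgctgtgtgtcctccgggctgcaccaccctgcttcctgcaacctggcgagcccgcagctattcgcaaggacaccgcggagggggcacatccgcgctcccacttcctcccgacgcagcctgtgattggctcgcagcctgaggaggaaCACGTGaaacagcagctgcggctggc
Apoe: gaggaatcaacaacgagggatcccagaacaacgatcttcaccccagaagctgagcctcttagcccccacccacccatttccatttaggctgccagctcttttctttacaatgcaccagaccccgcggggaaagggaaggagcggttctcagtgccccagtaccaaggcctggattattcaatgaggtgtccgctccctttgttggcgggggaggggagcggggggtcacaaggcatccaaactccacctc
Trem2: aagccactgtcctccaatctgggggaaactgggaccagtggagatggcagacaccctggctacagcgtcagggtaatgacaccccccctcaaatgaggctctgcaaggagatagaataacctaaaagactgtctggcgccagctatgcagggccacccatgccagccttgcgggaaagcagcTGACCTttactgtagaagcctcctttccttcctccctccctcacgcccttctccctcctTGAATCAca

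In Nceh1 the capitals mark the E-box CACGTG, 26 to 21 bases before the RefSeq start. In Trem2 they mark the nuclear receptor motif AGGTCA on the other strand (68 to 63 bases before the start) and the AP-1 motif TGANTCA (9 to 3 bases before the start). The Gpnmb and Apoe windows held none of the 8 motifs. RefSeq gave 11 promoters for 8 of the genes, and Lpl and Fabp5 were not matched. On both strands, the E-box was found in 1 of the 11 promoters (6.02% of 32851 promoters of all genes), the M-box TCANGTGA in 1, that of Lgals3 (3.45%), and the longer CLEAR motif, which contains the E-box, in 0 (0.240%). The nuclear receptor motif was found in 3, those of Cd36, Plin2 and Trem2 (14.0%), its direct repeat DR1, which contains it, in 0 (0.0335%), AP-1 in 1 (6.75%), the GC box GGGCGG in 2 (32.7%) and TATAAA in 2 (12.4%). These are letters in a window and not shown to be sites. In GENCODE vM21 (GRCm38), the gene bodies are at chr6:49036546-49070929 for Gpnmb (ENSMUSG00000029816), chr3:27182965-27284608 for Nceh1 (ENSMUSG00000027698), chr7:19696109-19699188 for Apoe (ENSMUSG00000002985) and chr17:48346401-48354147 for Trem2 (ENSMUSG00000023992). The Nceh1 body begins inside the window shown, so by that annotation its E-box lies within the gene.

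The aCXCR2 library held 85748842 unique molecular identifiers (UMIs, which count captured transcript molecules) in 5551 barcodes, and the NRS library 61386486 in 7314. After removal of barcodes under 500 UMIs, under 200 genes or over 10% mitochondrial UMIs, 4826 aCXCR2 and 5655 NRS cells remained, with medians of 10383.5 and 4759 UMIs. The libraries shared 101 barcodes, of which 59 and 58 were kept, and leaving them out changed no count of genes below. Clustering without the 10 genes gave 22 clusters. Cells were labelled Ly6G+, but 4 clusters scored highest for macrophage markers, with 1765 aCXCR2 and 606 NRS cells (36.6% and 10.7%) and Ly6g at only 2.11 and 0.256 CPM (a gene's UMIs scaled to a fixed total for each class). Another 7 clusters were neutrophil-like (2485 and 2085 cells; Ly6g 125 and 19.6 CPM). A further cluster was rod-like (142 and 598 cells), with the photoreceptor gene Gnat1 among its markers. It had a rod marker among its 10 leading genes and no other class scoring 0.5 or more. Other rod-scoring clusters were left out, which can lower the free RNA seen. The cluster serves as a comparison for free RNA, since rods are not known as phagocytes of this kind. Rods may still make some of the genes, and their Nceh1 is not read as free RNA. The shares of the classes depend on the bead purification and on which barcodes passed.

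Gdf15, a stress-induced cytokine, marked a pair of other clusters. It was highest in a cluster that also led with Ctsk, a lysosomal protease (the Gdf15 Ctsk cluster, 87 aCXCR2 and 1000 NRS cells), at 372 and 589 CPM, against 21.3 and 111 CPM in neutrophil-like cells. This cluster did not score as neutrophils. Its 10 neutrophil markers summed to 12381 CPM in aCXCR2 and 4725 CPM in NRS, compared with 168216 and 54942 CPM in neutrophil-like cells and 3170 and 2126 CPM in rod-like cells. Its 10 macrophage markers summed to 341 and 302 CPM, compared with 7409 and 9523 CPM in macrophage-scoring clusters, 415 and 424 CPM in neutrophil-like cells, and 136 and 65.2 CPM in rod-like cells. Within the neutrophil-like class, the cluster with the highest Gdf15 was led by the heat shock gene Hspa1a and by Prok2 (the Hspa1a Prok2 cluster, 263 and 499 cells, Gdf15 170.5 and 350.2 CPM). The Gdf15 Ctsk cluster was added after these values were seen, and it is called by its genes and given no cell type.

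Apoe, the apolipoprotein that carries cholesterol out of phagocytes, set macrophages apart from every other class shown. In macrophage-scoring clusters it stood at 12009 CPM in aCXCR2 and 29035 CPM in NRS. It stood at 247 CPM (interval 210 to 288) and 502 CPM (483 to 521) in the Gdf15 Ctsk cluster, at 253 and 490 CPM in neutrophil-like cells, and at 223 CPM (194 to 256) and 261 CPM (250 to 273) in rod-like cells. The order was therefore macrophage-scoring first and all other classes close together, and in aCXCR2 the intervals of the Gdf15 Ctsk cluster and of rod-like cells overlapped. In NRS the Gdf15 Ctsk cluster and neutrophil-like cells lay above the rod-like interval. The log2 ratio of macrophage-scoring clusters over the Gdf15 Ctsk cluster was 5.60 (5.38 to 5.83) in aCXCR2 and 5.86 (5.80 to 5.91) in NRS.

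Fabp5, a fatty acid carrier of the cytoplasm, followed Apoe. It stood at 5111 CPM in aCXCR2 and 6963 CPM in NRS in macrophage-scoring clusters, compared with 120 and 218 CPM in the Gdf15 Ctsk cluster, 204 and 120 CPM in neutrophil-like cells, and 124 and 65.7 CPM in rod-like cells. The log2 ratio over the Gdf15 Ctsk cluster was 5.42 and 4.99. In NRS, the 10% of cells with the most UMIs held 83.1% of the 1215 Fabp5 UMIs of the Gdf15 Ctsk cluster.

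The receptor for fatty acids, Cd36, and the lipase of plasma lipoproteins, Lpl, were at under 200 CPM in each of the 5 classes, with most of their UMIs in macrophages. Macrophage-scoring clusters held 99.3% of Cd36 UMIs of kept aCXCR2 cells and 95.4% of those of NRS cells, and 96.6% and 94.0% of Lpl UMIs. Cd36 stood at 22.0 CPM in aCXCR2 and 163 CPM in NRS in macrophage-scoring clusters. In the Gdf15 Ctsk cluster it had 0 UMIs in aCXCR2 and 14 UMIs in 8 cells in NRS (2.52 CPM). Lpl stood at 18.9 and 61.2 CPM in macrophage-scoring clusters, and in the Gdf15 Ctsk cluster at 30.7 CPM in aCXCR2, all 20 UMIs being in 1 of 87 cells, and at 0.54 CPM in NRS, from 3 UMIs. In NRS the log2 ratios of macrophage-scoring clusters over the Gdf15 Ctsk cluster were 6.02 for Cd36 and 6.83 (5.27 to 9.11) for Lpl. In aCXCR2 both were under 50 CPM on both sides and were not counted.

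Plin2, the coat protein of lipid droplets, was present in all leukocyte classes shown. Macrophage-scoring clusters summed as 1 class were lower than the Gdf15 Ctsk cluster, by less than 2-fold. Of these clusters, cluster 10 (described below) lay slightly above the Gdf15 Ctsk cluster in both libraries, and the others lay under it. It stood at 534 CPM in aCXCR2 and 847 CPM in NRS in macrophage-scoring clusters, compared with 903 and 1169 CPM in the Gdf15 Ctsk cluster, 452 and 735 CPM in neutrophil-like cells, and 19.4 and 44.5 CPM in rod-like cells. The log2 ratio of macrophage-scoring clusters over the Gdf15 Ctsk cluster was -0.76 and -0.46, and in NRS it was -0.01 with TMM factors, a scaling that gives less weight to a few very high genes.

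Nceh1, an enzyme that splits neutral cholesterol esters, had its highest level among the classes shown in the Gdf15 Ctsk cluster. It stood at 75.2 CPM in aCXCR2 and 136 CPM in NRS in macrophage-scoring clusters, compared with 198 and 285 CPM in the Gdf15 Ctsk cluster, 133 and 224 CPM in the Hspa1a Prok2 cluster, and 23.1 and 82.5 CPM in neutrophil-like cells as a whole. Rod-like cells had 62.5 and 60.6 CPM, so that the aCXCR2 level of neutrophil-like cells lay under theirs. Summed as 1 class, macrophage-scoring clusters were lower than the Gdf15 Ctsk cluster by log2 -1.40 (-1.65 to -1.13) and -1.07 (-1.17 to -0.98). With TMM factors the values were -1.07 and -0.62, so in NRS the difference no longer reached 2-fold. The clusters of the class differed. After thinning to 1000 UMIs, Nceh1 was seen in 2.05% of aCXCR2 cells of cluster 3 and 16.0% of cluster 13 (described below). The Gdf15 Ctsk cluster had 19.0% there, with an interval that overlapped that of cluster 13. In NRS, cluster 13 had 14.1% and the Gdf15 Ctsk cluster 25.5%. In the Gdf15 Ctsk cluster the UMIs were spread over cells: 53 of 87 cells held the 129 Nceh1 UMIs in aCXCR2, with at most 8 in a cell, and 656 of 1000 cells held the 1587 UMIs in NRS, with at most 11.

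Trem2, the lipid-sensing receptor, was highest in macrophages, with a lower sum in the Gdf15 Ctsk cluster. It stood at 398 CPM in aCXCR2 and 864 CPM in NRS in macrophage-scoring clusters, at 114 and 83.4 CPM in the Gdf15 Ctsk cluster, at 11.5 and 30.8 CPM in neutrophil-like cells, and at 8.62 and 5.60 CPM in rod-like cells. The log2 ratio of macrophage-scoring clusters over the Gdf15 Ctsk cluster was 1.81 (1.48 to 2.16) and 3.37. Few cells of the Gdf15 Ctsk cluster carried it: 22 of 87 cells held its 74 UMIs in aCXCR2 and 190 of 1000 cells its 464 UMIs in NRS, with 75.7% and 80.6% in the top 10% of cells.

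Gpnmb, a membrane glycoprotein of lysosomes and of lipid-laden macrophages, departed from the pattern of Apoe. It stood at 293 CPM in aCXCR2 and 1213 CPM in NRS in macrophage-scoring clusters, and at 1174 and 971 CPM in the Gdf15 Ctsk cluster. Neutrophil-like cells had 39.2 and 65.9 CPM and rod-like cells 9.70 and 20.9 CPM. The log2 ratio of macrophage-scoring clusters over the Gdf15 Ctsk cluster was -2.00 (-2.11 to -1.90) in aCXCR2 and 0.32 (0.28 to 0.36) in NRS. The direction for the class as a whole thus differed between the libraries. Of these clusters, cluster 13 (described below) held 7.03% of the cells of the class in aCXCR2 and 41.3% in NRS. Its own Gpnmb level lay above that of the Gdf15 Ctsk cluster in both libraries. The cells of the Gdf15 Ctsk cluster were uneven for Gpnmb: 42 of 87 cells held all 765 UMIs in aCXCR2 and 394 of 1000 cells all 5402 UMIs in NRS, with 59.0% and 71.2% of the UMIs in the top 10% of cells. Macrophage-scoring cells were uneven too, with 92.1% and 68.8% of their Gpnmb UMIs in the top 10% of cells.

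Spp1, which encodes the secreted matrix protein osteopontin, and Lgals3, the lectin galectin-3 that binds damaged lysosomes, were less alike. Spp1 stood at 1108 CPM in aCXCR2 and 5338 CPM in NRS in macrophage-scoring clusters, compared with 216 and 458 CPM in the Gdf15 Ctsk cluster, 215 and 366 CPM in neutrophil-like cells, and 24.8 and 72.6 CPM in rod-like cells. The log2 ratio of macrophage-scoring clusters over the Gdf15 Ctsk cluster was 2.36 (2.12 to 2.60) and 3.54. In the Gdf15 Ctsk cluster the top 10% of cells held 87.2% and 86.2% of Spp1 UMIs, beside 93.8% and 84.2% in macrophage-scoring cells. A single NRS macrophage-scoring cell held 16068 of the 83390 Spp1 UMIs of its class. Over the 18 aCXCR2 cells with UMIs of both Gdf15 and Ctsk, the log2 ratio of macrophage-scoring clusters was -1.34. Lgals3 stood at 1334 and 2029 CPM in macrophage-scoring clusters, 2056 and 2577 CPM in the Gdf15 Ctsk cluster, 925 and 1053 CPM in neutrophil-like cells, and 49.6 and 72.7 CPM in rod-like cells. Its log2 ratio, -0.62 and -0.34, was short of 2-fold, and in NRS it was 0.11 with TMM factors. These ratios are of the class as a whole. Cluster 13 in aCXCR2 and cluster 10 in NRS had more Lgals3 than the Gdf15 Ctsk cluster, and the other macrophage-scoring clusters had less.

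**Figure D1:**
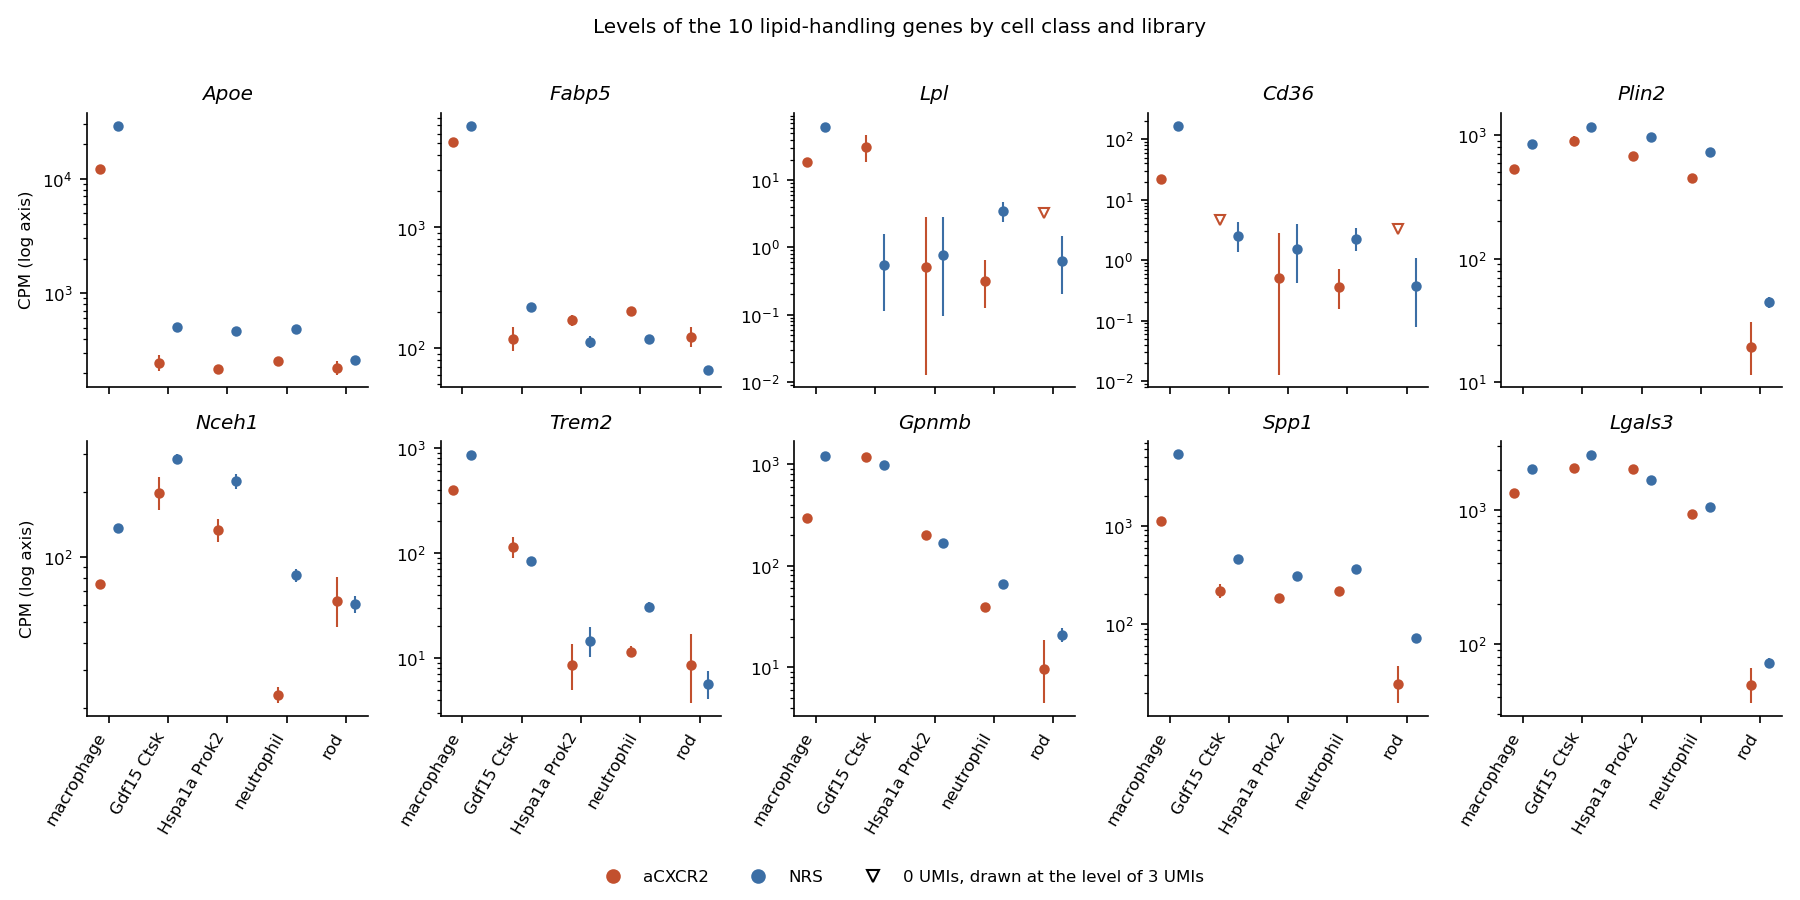
Level of each gene in CPM (log axis) in 5 cell classes, aCXCR2 in red and NRS in blue, with exact Poisson intervals that cover counting error; open triangles mark 0 UMIs, drawn at the level of 3 UMIs. Apoe, Fabp5, Trem2 and Spp1 are highest in macrophage-scoring clusters in both libraries, Nceh1 and Lgals3 in the Gdf15 Ctsk cluster, and Gpnmb is nearly as high in the Gdf15 Ctsk cluster (1174 and 971 CPM) as in NRS macrophages (1213 CPM).

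Counted over the 10 genes, macrophage-scoring clusters summed as 1 class and the Gdf15 Ctsk cluster differed by gene and not as a block. A gene was counted when it reached 50 CPM on 1 side and differed at least 2-fold. In aCXCR2, 8 genes reached that level, of which Apoe, Trem2, Fabp5 and Spp1 were higher in macrophages and Gpnmb and Nceh1 lower, where 15.1% of all genes tested were 2-fold higher and 20.6% lower. In NRS, all 10 reached it, of which 6 were higher (Apoe, Trem2, Lpl, Fabp5, Spp1 and Cd36) and 1, Nceh1, lower, where 13.3% of all genes were higher and 29.7% lower. The median log2 ratio was 0.59 in aCXCR2 and 3.46 in NRS, beside -0.29 and -0.55 over all genes tested. Subtracting the level of rod-like cells from each class gave Gpnmb -2.04 and 0.33. No such value is given for Apoe, since in aCXCR2 the remainder of the Gdf15 Ctsk cluster was small beside the rod-like level. None is given for Nceh1, since there the remainder of macrophage-scoring clusters was small. The NRS values of both genes, which this does not limit, are left out with them.

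The comparison with the Hspa1a Prok2 cluster gave no gene that was 2-fold lower in macrophages. In aCXCR2, 4 of 8 genes were higher, Apoe (log2 5.80), Trem2 (5.54), Fabp5 (4.91) and Spp1 (2.59), where 25.6% of all genes were higher. In NRS, 7 of 10 were higher, Apoe (5.96), Gpnmb (2.87), Trem2 (5.91), Lpl (6.30), Fabp5 (5.96), Spp1 (4.11) and Cd36 (6.71), where 18.5% of all genes were higher. Gpnmb in aCXCR2 was 0.56, and Nceh1 was -0.82 and -0.73. The medians were 1.58 and 5.01, beside 0.15 and -0.31 over all genes tested.

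**Figure D2:**
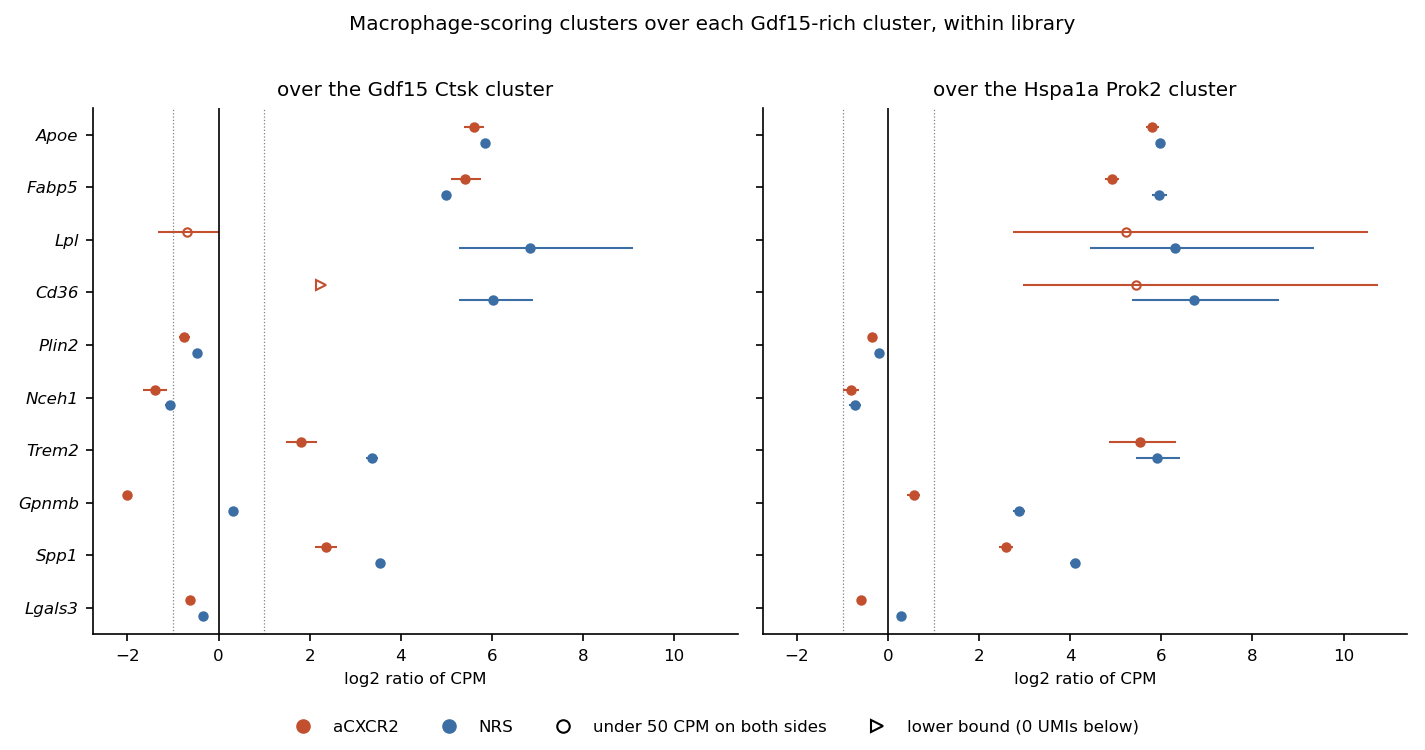
Log2 ratio of macrophage-scoring clusters over the Gdf15 Ctsk cluster (left) and over the Hspa1a Prok2 cluster (right) for each gene, aCXCR2 in red and NRS in blue, with exact intervals that cover counting error; dotted lines mark 2-fold, open circles genes under 50 CPM on both sides, and the arrow a lower bound. Gpnmb lies at -2.00 in aCXCR2 and 0.32 in NRS over the Gdf15 Ctsk cluster, and Nceh1 lies left of -1 in both libraries.

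Set against neutrophil-like cells, the Gdf15 Ctsk cluster held more Gpnmb, Nceh1, Trem2 and Lgals3 and no more Apoe. In both libraries 8 genes could be compared and 4 were at least 2-fold higher in the Gdf15 Ctsk cluster, where 31.8% of all genes were higher in aCXCR2 and 7.48% in NRS. Log2 ratios were 4.91 and 3.88 for Gpnmb, 3.10 and 1.79 for Nceh1, 3.30 and 1.44 for Trem2, and 1.15 and 1.29 for Lgals3. Apoe was -0.03 (-0.27 to 0.19) and 0.04 (-0.03 to 0.10). Plin2 was short of 2-fold (0.67 in NRS), Spp1 was 0.01 and 0.33, and Fabp5 was -0.77 and 0.87, with opposite signs in the libraries. TMM factors moved the aCXCR2 values by -0.79 and the NRS values by -0.21, which put Lgals3 in aCXCR2 at 0.36 and Apoe at -0.83 and -0.17. The medians were 1.07 and 1.08, beside 0.57 and 0.20 over all genes tested.

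Within the neutrophil-like class, the Hspa1a Prok2 cluster was also higher than the rest in Gpnmb (log2 3.07 and 2.36), Nceh1 (3.41 and 2.69) and Lgals3 (1.30 and 0.99). That was 3 of 7 genes in aCXCR2 and 2 of 7 in NRS, where 14.7% and 6.12% of all genes were higher. Its Gpnmb level was 199 CPM in aCXCR2 and 166 CPM in NRS. With coarser clusters, or with the highest doublet scores removed, the cluster with the highest Gdf15 in the class held 61 aCXCR2 and 470 NRS cells, or 404 and 195 cells, and there Gpnmb and Nceh1 were lower than in the other neutrophil-like cells.

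Shares of cells with a UMI, after each cell was thinned to 1000 UMIs and shallower cells were left out, placed macrophage-scoring cells and the Gdf15 Ctsk cluster in the same order as CPM for Gpnmb, Nceh1 and Trem2. Gpnmb was seen in 8.69% of aCXCR2 and 35.0% of NRS macrophage-scoring cells, and in 38.1% (27.7 to 49.3%) and 26.1% (23.4 to 29.0%) of the Gdf15 Ctsk cluster. In macrophage-scoring cluster 13 alone it was seen in 49.6% (40.3 to 58.9%) and 57.7% (51.2 to 64.0%). Neutrophil-like cells had a UMI in 1.79% and 3.96%, and rod-like cells in 2.27% and 0.861%, so no order of these classes is read from the shares. Before thinning the shares were 31.8% and 60.2% in macrophage-scoring cells (median depth 30050 and 23462.5 UMIs), 48.3% and 39.4% in the Gdf15 Ctsk cluster (7101 and 5269.5 UMIs), and 6.34% and 11.4% in rod-like cells (4930 and 5462 UMIs). In the Gdf15 Ctsk cluster 84 of 87 aCXCR2 and 980 of 1000 NRS cells were deep enough to be thinned. The Gpnmb share of the cluster lay far above that of rod-like cells at either depth.

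Nceh1 was seen in 5.97% and 11.4% of macrophage-scoring cells, 19.0% and 25.5% of the Gdf15 Ctsk cluster, and 7.58% and 5.68% of rod-like cells. In macrophage-scoring cluster 13 it was seen in 16.0% (9.90 to 23.8%) and 14.1% (9.97 to 19.2%). That aCXCR2 interval overlapped the one of the Gdf15 Ctsk cluster (11.3 to 29.1%). Trem2 was seen in 27.4% and 45.6% of macrophage-scoring cells, 4.76% and 5.20% of the Gdf15 Ctsk cluster, and 0.758% and 1.03% of rod-like cells. Apoe was seen in 76.6% and 82.0% of macrophage-scoring cells, and in 22.6% and 32.2% of the Gdf15 Ctsk cluster, 22.8% and 33.1% of neutrophil-like cells and 23.5% and 26.9% of rod-like cells. The Apoe shares of the Gdf15 Ctsk cluster and of neutrophil-like cells in aCXCR2 were therefore no higher than the rod-like share, and no expression is read from them. Fabp5 in aCXCR2, at 7.14% of the Gdf15 Ctsk cluster and 13.6% of rod-like cells, was not higher either. Cd36 was seen in 0 of 84 cells of the Gdf15 Ctsk cluster in aCXCR2, which allows up to 3.57% of cells with a UMI at this depth (3 of 84) and sets no limit on the cells that express it.

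Apoe was followed first through where its UMIs lay. Macrophage-scoring clusters held 98.6% of the Apoe UMIs of kept aCXCR2 cells and 96.3% of those of kept NRS cells. For Gpnmb these clusters held 88.9% and 71.0%, and for Nceh1 83.1% and 36.2%. The Gdf15 Ctsk cluster held 4.26% and 20.2% of Gpnmb UMIs and 2.62% and 27.1% of Nceh1 UMIs, but only 0.0243% and 0.592% of Apoe UMIs.

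The Apoe level of rod-like barcodes did not rise with their depth. In 4 equal bins of rod-like barcodes from shallow to deep, Apoe stood at 444, 315, 174 and 184 CPM in aCXCR2 and at 587, 402, 309 and 221 CPM in NRS. Counted per barcode, the shallowest and the deepest bin held 0.833 and 2.63 Apoe UMIs in aCXCR2 and 1.09 and 8.68 in NRS, while the median depth of the 4 bins was 1681.5, 4452.5, 5604 and 12273 UMIs in aCXCR2 and 1909.5, 3991.5, 8529 and 24290 UMIs in NRS. Thus the UMIs per barcode grew less than in proportion to depth.

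The same held for neutrophil-like cells of the aCXCR2 library, with 413, 301, 241 and 195 CPM, but those of NRS had 608, 450, 469 and 487 CPM. In the Gdf15 Ctsk cluster, Apoe stood at 456, 276, 167 and 258 CPM in aCXCR2 and at 533, 640, 512 and 417 CPM in NRS. Gpnmb ran the other way there, at 288, 1158, 912 and 1482 CPM in aCXCR2 and at 590, 618, 884 and 1310 CPM in NRS, so that its level was highest in the deepest bin in both libraries. In macrophage-scoring cells Apoe stood at 6612, 9541, 11427 and 15655 CPM in aCXCR2 and at 25232, 18651, 27363 and 32351 CPM in NRS.

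**Figure D3:**
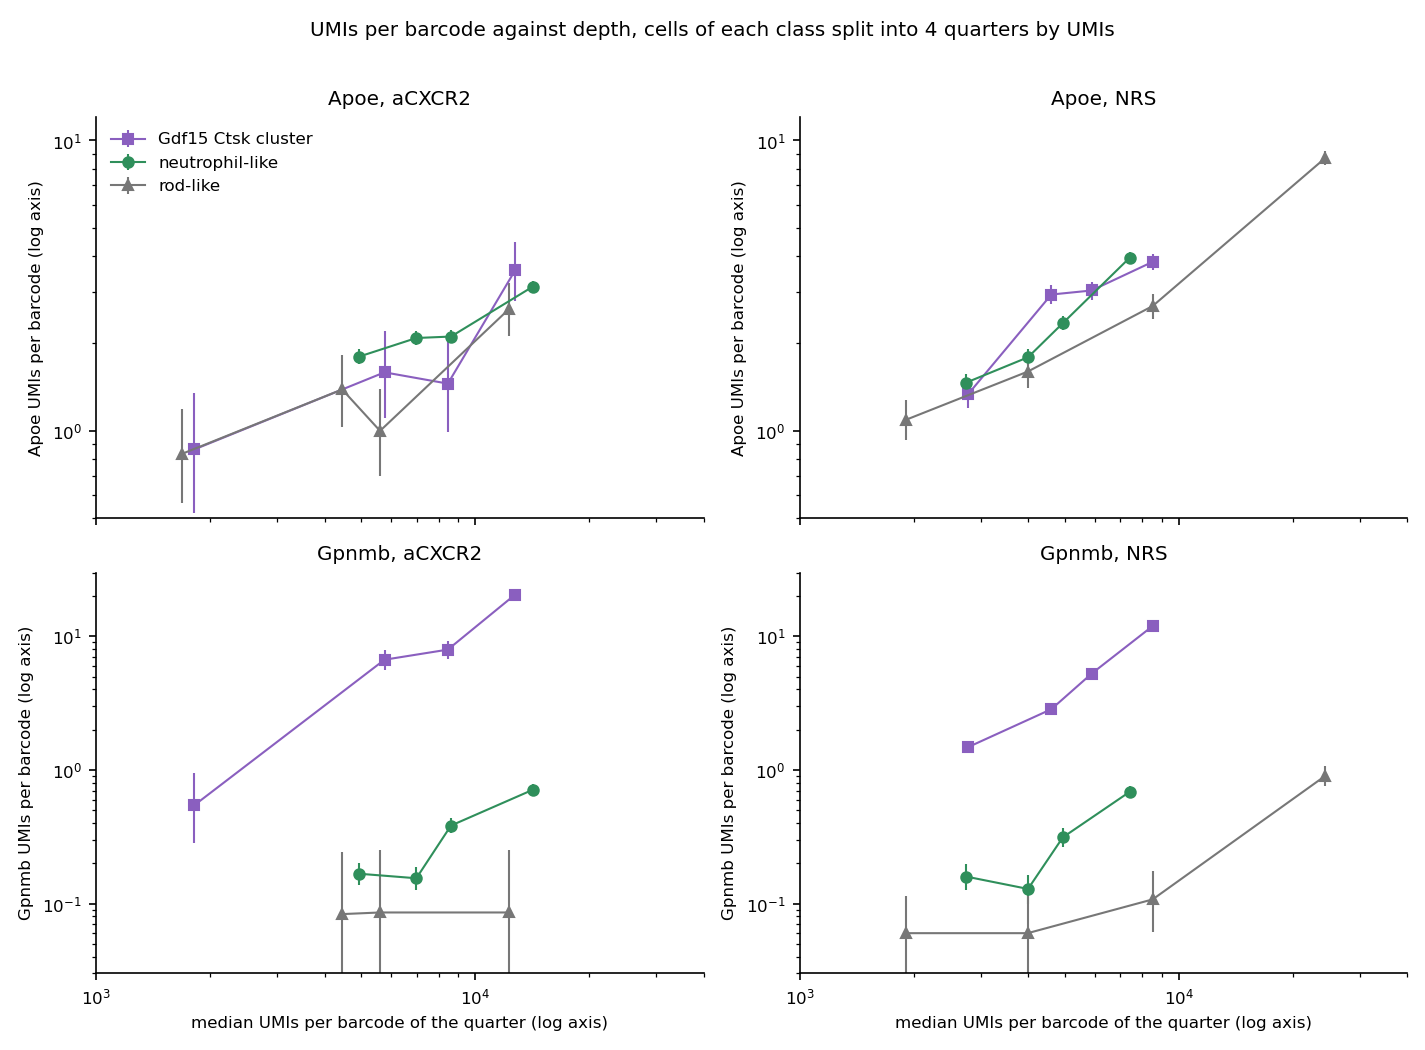
Apoe and Gpnmb UMIs per barcode against the median UMIs of each of 4 depth bins (both axes log) in the Gdf15 Ctsk cluster, neutrophil-like and rod-like cells, aCXCR2 left and NRS right. The Apoe lines of the 3 classes run between 0.833 and 8.68 UMIs per barcode. In NRS the rod-like line lies under the others at like depth. It has 2.69 Apoe UMIs at a median of 8529 UMIs, beside 3.83 at 8555.5 in the Gdf15 Ctsk cluster and 3.95 at 7425 in neutrophil-like cells. Gpnmb in the Gdf15 Ctsk cluster lies above the other 2 classes. A rod-like bin with 0 Gpnmb UMIs is not drawn.

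Ratios of UMIs to those of Apoe were compared between classes, and the source of the UMIs was not tested. The macrophage-scoring clusters did not share 1 ratio. Gpnmb UMIs per 100 Apoe UMIs ran from 0.316 in cluster 3 to 12.3 in cluster 10 in aCXCR2. In NRS they ran from 1.51 in cluster 5 to 9.59 in cluster 10. Per 100 Apoe UMIs, the complement gene C1qa, a macrophage transcript, had 10.4 UMIs in aCXCR2 and 7.74 in NRS in macrophage-scoring clusters. It had 3.73 and 2.47 in the Gdf15 Ctsk cluster, 6.22 and 2.91 in neutrophil-like cells, and 7.25 and 2.95 in rod-like cells. Gpnmb had 2.44 and 4.18 UMIs per 100 Apoe UMIs in macrophage-scoring clusters, 475 and 194 in the Gdf15 Ctsk cluster, 15.5 and 13.5 in neutrophil-like cells, and 4.35 and 8.00 in rod-like cells. In NRS the ratios of C1qa, C1qb and C1qc had intervals under the macrophage value in the Gdf15 Ctsk cluster, the Hspa1a Prok2 cluster, neutrophil-like and rod-like cells. In aCXCR2 the intervals of the Hspa1a Prok2 cluster (C1qa 5.44 to 11.3) and of rod-like cells (C1qa 3.98 to 12.2, from 15 UMIs) held the macrophage value for all 3 genes, and that of the Gdf15 Ctsk cluster held it for C1qc (3.34 to 12.6, beside 8.53). Nceh1 had 28.0 and 23.2 UMIs per 100 Apoe UMIs in rod-like cells, beside 0.626 and 0.467 in macrophage-scoring clusters. The Gpnmb ratio of the Gdf15 Ctsk cluster was far from that of any other class.

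Next, macrophage transcripts in the same cell were counted. At 1000 UMIs, C1q genes were seen in 1 of 32 aCXCR2 and 16 of 256 NRS cells of the Gdf15 Ctsk cluster that had a Gpnmb UMI, and in 4 of 52 and 28 of 724 of those without one, and the intervals of these shares overlapped in both libraries. Also, single barcodes could carry much of the Apoe: 1 NRS rod-like barcode held 322 Apoe UMIs, and the top 10% of cells of the Gdf15 Ctsk cluster held 50.3% and 54.4% of its Apoe UMIs. Doublets were not removed from these counts. With the highest doublet scores removed and the cells clustered again, the log2 ratio of the Gdf15 Ctsk cluster over neutrophil-like cells was 6.20 in aCXCR2 and 5.03 in NRS for Gpnmb, and -0.11 and -0.14 for Apoe.

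Macrophage-scoring cells fell into 4 clusters that differed in the 10 genes. Cluster 13, whose leading genes by fold were Spp1, Gpnmb and Cd36 themselves, with the protease gene Ctsd and Olfml3 further down, had the highest Gpnmb, Spp1, Trem2 and Cd36 of the 4 clusters in both libraries although these genes were left out of the clustering. Gpnmb stood there at 2338 CPM in aCXCR2 and 2173 CPM in NRS, Spp1 at 6813 and 9726 CPM, Trem2 at 1145 and 1235 CPM, and Cd36 at 142 and 294 CPM. Cluster 5, with Ccl8, Mrc1 and C1q genes as leading genes, had high Apoe (18813 and 37094 CPM) but Gpnmb at 110 and 559 CPM and Spp1 at 210 and 763 CPM. Cluster 10, with Mmp12, Serpinb2 and Inhba, had little Apoe for a macrophage (1870 and 2432 CPM) beside Spp1 at 2448 and 2612 CPM. Its median cell had Apoe at only 188 and 354 CPM. After thinning, 38.4% and 42.8% of its cells had an Apoe UMI, beside 22.8% and 33.1% of neutrophil-like cells. Plin2 was seen in 52.3% and 66.9% of its thinned cells, beside 45.2% and 58.8% of the Gdf15 Ctsk cluster, with intervals that overlapped. Cluster 3, with the monocyte genes Ccr2, Vcan and Ly6c2, had Apoe at 5352 and 9790 CPM and Gpnmb at 16.9 and 585 CPM, the NRS values coming from 43 cells.

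Between the 2 clusters richest in Apoe, cluster 13 over cluster 5 in aCXCR2 gave 6 genes at least 2-fold higher, where 5.01% of all genes were higher, and in NRS 4 genes, where 2.73% were. Gpnmb (log2 4.40 and 1.96), Spp1 (5.02 and 3.67), Lpl (2.85 and 2.04) and Cd36 (4.69 and 2.47) passed in both. Trem2 (1.32) and Lgals3 (1.14) passed in aCXCR2. Even in cluster 13 the cells differed widely, with Gpnmb quartiles of 25.2, 747 and 2757 CPM in aCXCR2 and 151, 1330 and 2427 CPM in NRS.

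The composition of the macrophage-scoring class differed between the libraries. Cluster 13 made up 7.03% (5.88 to 8.32%) of these cells in aCXCR2 and 41.3% (37.3 to 45.3%) in NRS. Cluster 3 made up 41.4% (39.0 to 43.7%) and 7.10% (5.18 to 9.44%), cluster 5 34.1% and 24.3%, and cluster 10 17.6% and 27.4%. The summed UMIs of the 10 genes, of 1000 UMIs, had medians of 46 in aCXCR2 and 56 in NRS in cluster 13, 27 and 44 in cluster 5, 6 and 8 in cluster 10, 7 and 9 in cluster 3, and 13 and 37 over the whole class. The Gdf15 Ctsk cluster had 4 and 5, neutrophil-like cells 2 and 2, and rod-like cells 0 and 0.

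**Figure D4:**
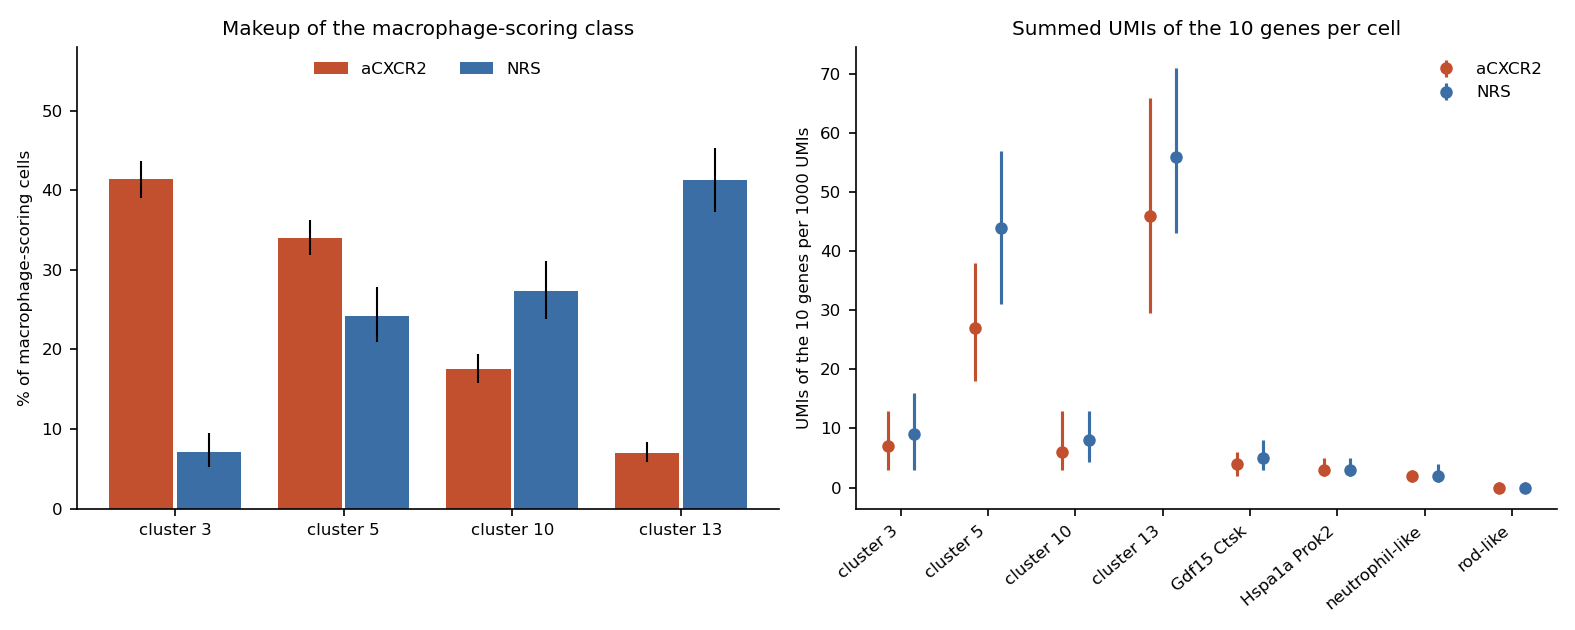
Left, percent of macrophage-scoring cells in each of the 4 clusters with Clopper-Pearson intervals; right, median and quartiles of the summed UMIs of the 10 genes per 1000 UMIs of a cell in each class, aCXCR2 in red and NRS in blue. Cluster 13 holds 7.03% of aCXCR2 and 41.3% of NRS macrophage-scoring cells and has the highest median sum (46 and 56 UMIs).

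All 10 genes were lower in aCXCR2 than in NRS when macrophage-scoring cells were summed, 6 of them at least 2-fold, where 2.56% of all genes tested were 2-fold lower. The log2 ratios of aCXCR2 over NRS were -1.27 for Apoe, -2.05 for Gpnmb, -1.12 for Trem2, -1.70 for Lpl, -2.27 for Spp1 and -2.89 for Cd36. For Spp1, a single NRS cell held 16068 of the 83390 UMIs. Fabp5 (-0.45), Lgals3 (-0.61), Plin2 (-0.67) and Nceh1 (-0.85) were short of 2-fold. The median was -1.20, beside 0.12 over all genes tested. These values hold both a difference in composition and any difference within clusters. With cluster 13 left out, 3 genes were 2-fold lower (Gpnmb -2.19, Spp1 -1.65 and Cd36 -2.45), without cluster 3 Apoe was -0.90 and Trem2 -0.78, and with the 4 clusters weighted equally only Cd36 was (-1.26), with Apoe at -0.69, Gpnmb at -0.40 and Spp1 at -0.67.

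Within single clusters the difference between libraries depended on the cluster. In cluster 13 only Cd36 was 2-fold lower in aCXCR2 (-1.05), where 0.518% of all genes were lower, and Gpnmb was 0.11, Apoe -0.45 and Spp1 -0.51. In cluster 10 too it was Cd36 alone (-1.89), where 0.87% of all genes were lower. In cluster 5, Gpnmb (-2.34), Spp1 (-1.86) and Cd36 (-3.27) were lower, where 2.84% were lower, and Fabp5 was 0.65. In cluster 3, Gpnmb (-5.11), Spp1 (-4.47), Lpl (-3.31), Trem2 (-1.33) and Fabp5 (-1.19) were lower as sums, where 4.19% of all genes were. Few cells carried these sums: the median cell was at 0 CPM for Gpnmb, Spp1 and Lpl in both libraries, and 1 of the 43 NRS cells had Spp1 at 17790 CPM. For Fabp5 the median cell had 585 CPM in aCXCR2 and 398 CPM in NRS, the opposite direction, and thinned cells had a UMI in 51.4% and 48.8%. As a sum, Cd36 was thus the gene lower in aCXCR2 in clusters 5, 10 and 13 alike. Its median cell was at 0 CPM in these clusters in both libraries. Thinned cells had a Cd36 UMI in 0.832% and 6.16% of cluster 5. In cluster 10 the shares were 1.94% and 2.41%, and in cluster 13 8.40% and 16.2%, with intervals that overlapped in both clusters.

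The Gdf15 Ctsk cluster had Apoe (-1.02) and Spp1 (-1.08) 2-fold lower in aCXCR2, where 1.15% of all genes were lower. Gpnmb was 0.27 and Trem2 0.45. Its summed neutrophil markers moved too, at 12381 CPM in aCXCR2 and 4725 CPM in NRS, as did its summed rod markers, at 59.9 and 722 CPM. With the level of rod-like cells subtracted in each library, the log2 ratio of Spp1 was -1.01, whereas the aCXCR2 level of Apoe did not differ from that of rod-like cells beyond counting error. With the highest doublet scores removed Spp1 was 0.28, and with TMM factors Apoe was -0.96. In the Hspa1a Prok2 cluster Apoe alone was 2-fold lower (-1.11), where 3.93% of all genes were lower. Its aCXCR2 level of 215 CPM was no higher than that of rod-like cells (223 CPM), and it was short of 2-fold at -0.82 with TMM factors, -0.81 with median of ratios factors, -0.79 with cells weighted equally, -0.95 with another seed, -0.40 at Leiden resolution 0.5 and -0.33 with the strict filter. Among all neutrophil-like cells Nceh1 alone was 2-fold lower (-1.84), where 8.62% of all genes were. Over all kept cells, Gpnmb (-1.35), Spp1 (-1.28), Cd36 (-1.93) and Nceh1 (-1.03) were lower, where 11.2% of all genes were. With TMM factors, which moved the values of all kept cells by 0.53, only Cd36 stayed 2-fold lower (-1.41) and Fabp5 was 2-fold higher (1.08).

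**Figure D5:**
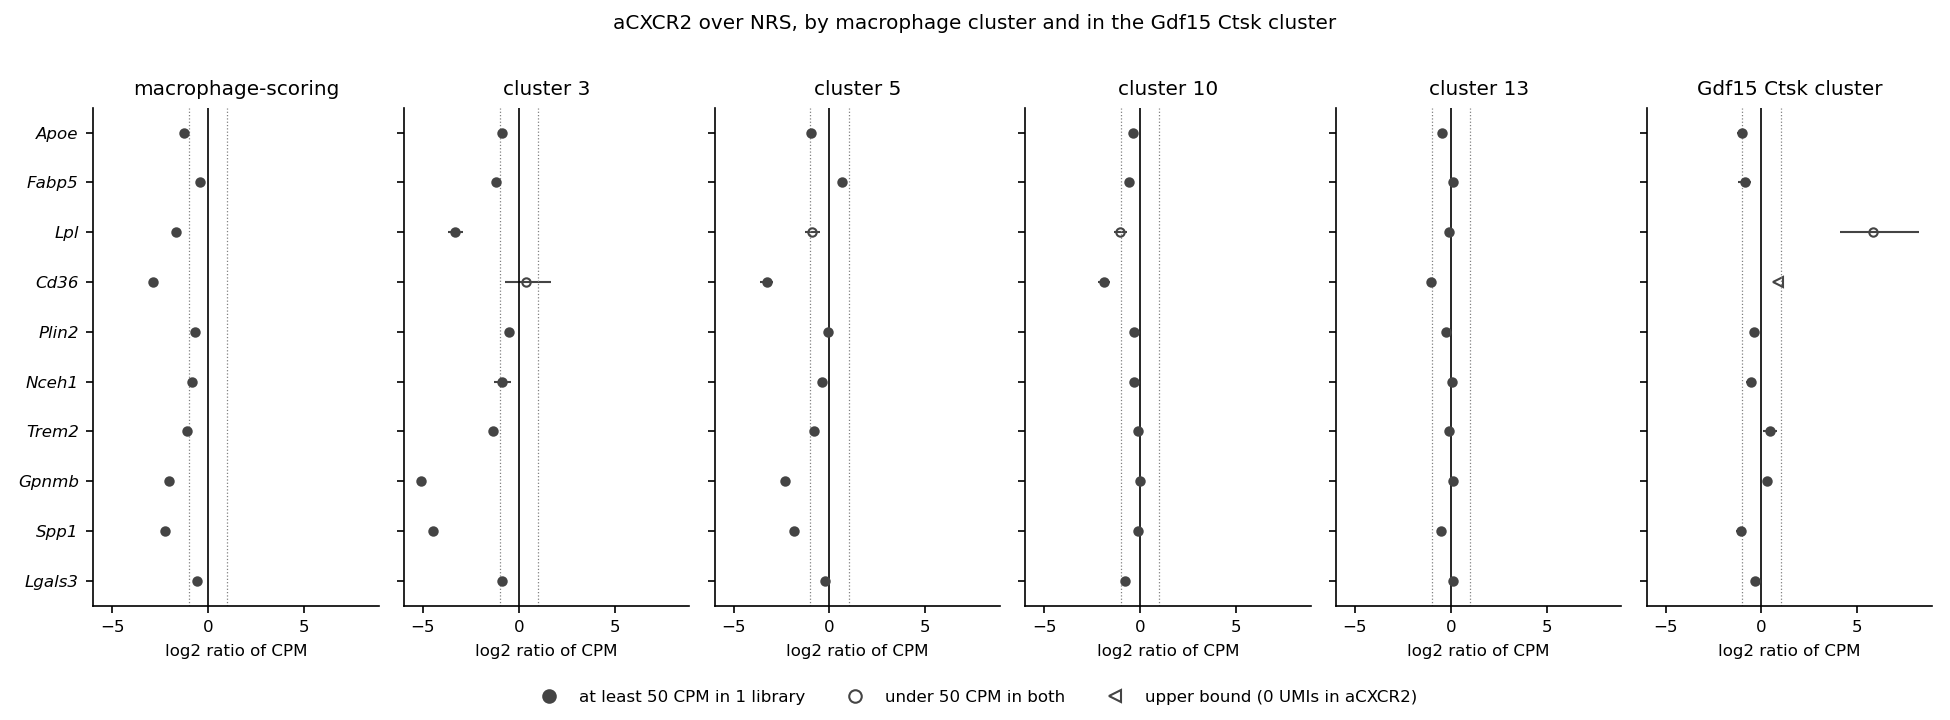
Log2 ratio of aCXCR2 over NRS for each gene in the macrophage-scoring class, its clusters 3, 5, 10 and 13, and the Gdf15 Ctsk cluster, with exact intervals that cover counting error. All 10 genes lie under 0 in the class as a whole, whereas in cluster 13 they run from -0.51 (Spp1) to 0.11 (Gpnmb and Fabp5) apart from Cd36 (-1.05).

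Over 32 sums of a cluster in a library with at least 50 cells, the 10 genes were correlated pair by pair, and all pairs were positive. No grouping of the genes was computed. Sums from 1 library share its depth and free RNA, so these correlations are a description. The closest pairs among the 10 were Lgals3 with Plin2 (Pearson r of log2 CPM 0.94), Apoe with Fabp5 (0.87), Fabp5 with Trem2 (0.87), Apoe with Trem2 (0.86), Cd36 with Lpl (0.82) and Gpnmb with Nceh1 (0.82). The most distant were Apoe with Plin2 (0.27) and Fabp5 with Nceh1 (0.29). Apoe was nearest to the efferocytosis receptor gene Mertk (0.96), Fabp5 to C1qb (0.97), Trem2 to Ly9 (0.93) and Cd36 to Dapk1 (0.90). Gpnmb was nearest to Lhfpl2 (0.91) and to the lysosomal activator gene Psap (0.90), and Nceh1 to the lysosomal protease gene Tpp1 and the lysosomal cholesterol transporter gene Npc1 (0.93 each). Spp1 was nearest to Rnf128 (0.84), Lpl to Dapk1 (0.90), Lgals3 to the ferritin gene Ftl1 and Plin2 to Itpripl2 (0.95 each).

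Of 85 other genes of lipid handling in 8 lists, 43 could be compared between macrophage-scoring clusters and the Gdf15 Ctsk cluster in each library. In aCXCR2, 9 were at least 2-fold higher, where 15.1% of all genes tested were, and 9 lower, where 20.6% were. In NRS 11 were higher, where 13.3% of all genes were, and 6 lower, where 29.7% were. The counts of the single lists below are small and stand beside these same shares of all genes. Scavenger and efferocytosis receptors had 4 of 6 higher in aCXCR2 and 5 of 7 in NRS and 0 lower in both. Msr1, the scavenger receptor A, had log2 ratios of 6.38 (4.53 to 9.43, against 2 UMIs) and 6.59, and Marco, another scavenger receptor, 5.83 (3.35 to 11.1, against 1 UMI) and 6.78. In cholesterol export, Pltp (6.29 and 7.03) and Abca1 (2.96 and 3.41) were higher, 2 of 5 genes being higher and 2 lower in aCXCR2 and 3 of 6 higher and 1 lower in NRS.

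Lipid droplet genes had 0 of 6 higher and 4 lower in both libraries, where 20.6% and 29.7% of all genes were lower. The lipolysis inhibitor G0s2 was at -3.00 and -2.44, the lipase activator Abhd5 at -1.93 and -1.97, and the hypoxia-induced droplet gene Hilpda at -1.75 and -1.64. Of the list around the MiT/TFE factors, which drive lysosomal genes, 3 of 4 were lower in aCXCR2 and 1 of 3 in NRS, with 0 higher, and Fnip2 was at -2.74 and -2.09. Lysosomal genes differed little, with 2 of 11 higher in aCXCR2 and 2 of 12 in NRS (Asah1 1.17 and 1.31, Gm2a 1.15 and 1.83), 0 lower, and Psap at -0.81 and 0.67. For TREM2 signalling, 0 of 5 in aCXCR2 and 0 of 3 in NRS differed 2-fold, and the adaptor gene Tyrobp was at -0.83 and -0.11.

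In fatty acid handling, 1 of 5 genes in aCXCR2 and 1 of 6 in NRS was higher and 0 lower. Fabp4, another fatty acid carrier, was at least log2 3.73 higher in aCXCR2, where the Gdf15 Ctsk cluster had 0 UMIs, and 6.15 higher in NRS. In cholesterol synthesis only Srebf2 could be compared, in aCXCR2, at -0.81. Against neutrophil-like cells, the Gdf15 Ctsk cluster had 7 of 11 lysosomal genes higher and 0 lower in aCXCR2, and 6 of 12 higher and 1 lower in NRS, where 31.8% and 7.48% of all genes were higher and 12.6% and 11.6% lower. Between the libraries, 4 of 40 genes of the 8 lists were 2-fold lower in aCXCR2 macrophage-scoring clusters, where 2.56% of all genes were, with Marco at -2.03 and Psap at -1.09. In cluster 13, 0 of 38 were 2-fold lower, where 0.518% of all genes were, so nothing is read from that count.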

How the data were processed

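The deposited matrices hold UMI counts, whole numbers that the authors did not normalize. Per the file headers they come from software version 3.0.0. Cell Ranger and Seurat are named, with no version, in the submitters' processing notes. The notes list a human build, but the feature tables hold mouse Ensembl IDs, so positions are those of GENCODE vM21 and RefSeq, not of the files. The ratio of UMIs to library total is affected by a few very high neutrophil genes, hence the TMM alternative.

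Kept barcodes had at least 500 UMIs and 200 genes, with mitochondrial UMIs at 10% or less. Scrublet called 4 of 4826 aCXCR2 and 0 of 5655 NRS cells doublets, so it has not worked and doublets remain; an alternative removed the 186 and 256 highest scores. Both libraries were clustered together in scanpy 1.11.5 (2000 variable genes without the 10 genes and the 85 pathway genes, 30 components, 15 neighbours, Leiden resolution 1 with leidenalg 0.10.2), with no correction for library. Clusters took the class with the highest score from fixed marker lists. How scores were computed was decided with the data in view.

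CPM is the summed count of a gene over the summed count of all genes in a class of 1 library, scaled as usual. Intervals (95%) are exact Poisson for CPM, Clopper-Pearson for shares and conditional for ratios. A share of 0 allows up to 3 counts. A ratio against 0 UMIs was computed against 3 UMIs per class and library. Genes with at least 50 CPM on 1 side and at least 2-fold apart were counted. Named genes are the 10 members, up to 3 genes per pathway list with the largest ratios, the 3 genes most alike to each member, and class markers, the pathway rule being applied to each Gdf15-rich cluster. The rule for Gdf15-type neutrophils took the Hspa1a Prok2 cluster. The members and lists were chosen with earlier results of these data known. The code for ratios was checked with simulated counts of known folds. The software was R 4.3.3 with edgeR 4.0.16 for TMM factors, and scipy 1.17.1, pandas 2.3.3 and numpy 2.4.6 under Python 3.11.15.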

Additional observations from a re-analysis of the deposited data

Results flagged for a closer look

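As sums over a class, several genes moved in opposite directions between the libraries in different classes. In each case the difference was not tested, since there is 1 library per group. The log2 ratio of aCXCR2 over NRS of Gpnmb was 0.27 in the Gdf15 Ctsk cluster and 0.26 in the Hspa1a Prok2 cluster, beside -2.05 in macrophage-scoring clusters. For Trem2 it was 0.45 in the Gdf15 Ctsk cluster, beside -1.12 in macrophage-scoring clusters. For Fabp5 it was 0.61 in the Hspa1a Prok2 cluster, beside -0.45 in macrophage-scoring clusters, and for Lgals3 0.27 beside -0.61. The macrophage-scoring values hold the difference in composition given above. The Trem2 value of the Gdf15 Ctsk cluster rests on 74 aCXCR2 UMIs in 22 cells. Its thinned shares, 4.76% in aCXCR2 and 5.20% in NRS, ran against the sum. So did those of Gpnmb in the Hspa1a Prok2 cluster (6.27% and 8.21%), where 27 cells held 95.9% of the aCXCR2 UMIs. In both cases the intervals overlapped. The other shares of these clusters ran as the sums did.

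Barcodes removed for over 10% mitochondrial UMIs, which entered no comparison, held several of the genes at a higher CPM in aCXCR2 than in NRS; those whose counting intervals did not overlap are given first. Apoe stood at 3971 CPM in aCXCR2 and 1734 CPM in NRS, Fabp5 at 855 and 228 CPM, and Trem2 at 97.7 and 31.5 CPM. Spp1 stood at 383 and 341 CPM, Lgals3 at 339 and 213 CPM, and Plin2 at 232 and 110 CPM. Gpnmb, at 103 and 101 CPM, and Lpl, at 8.42 and 5.86 CPM, had intervals that overlapped. Which classes these barcodes came from was not tested.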

How the results depend on the processing

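Of counts of genes and Apoe levels under the alternatives, 162 stayed within 1.5 times or within counting error and 40 moved. Of the log2 ratios of single genes, 979 stayed within counting error, 864 moved beyond it, and 17 of genes at least 2-fold apart changed sign. Of those under 2-fold or too low to be counted, 108 that moved and 24 that stayed within counting error also changed sign. Of shares of cells, at other thinning depths, 58 stayed and 142 moved. No paired analysis was possible because there is 1 library per group. Which cluster stood for Gdf15-type neutrophils changed with the clustering, so values for it can come from other cells. Against the other neutrophil-like cells in aCXCR2 (3 genes) the count was 1 at Leiden resolution 0.5, 1 with the strict filter, 0 with libraries clustered separately and 1 with the highest doublet scores removed; in NRS (2 genes) it was 0, 0, 1 and 0. There Gpnmb reversed in aCXCR2 to -2.01 (resolution 0.5), -0.85 (strict filter), -0.061 (separate clustering) and -1.76 (doublet scores), Lgals3 to -0.56, -0.62 (strict filter) and -0.21 (doublet scores), and Nceh1 to -1.78, -1.14 and -0.29; in NRS Gpnmb reversed to -0.54 and -0.39 and Nceh1 to -0.85 and -0.22 (resolution 0.5 and doublet scores). Macrophage-scoring clusters over it in aCXCR2 (4 genes) gave 7 at resolution 0.5 and 7 with the strict filter.

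Between libraries, that cluster (1 gene) gave 2 with members among the variable genes, 4 with separate clustering, 2 with the rod-like level subtracted, and 0 with resolution 0.5, another seed, the strict filter, TMM, median of ratios or cells weighted equally. The Gdf15 Ctsk cluster (2 genes) gave 0 with members among the variable genes, 1 with resolution 0.5, another seed, doublet scores removed, TMM, median of ratios or cells weighted equally, and 4 when its 18 aCXCR2 and 160 NRS cells with UMIs of both Gdf15 and Ctsk were taken. Spp1 there reversed to 0.28 with doublet scores removed and 2.80 with those cells, which put macrophage-scoring clusters over it in aCXCR2 at -1.34. The Gdf15 Ctsk cluster over neutrophil-like cells in aCXCR2 (4 genes) gave 7 with doublet scores removed. Over all kept cells (4 genes) TMM and median of ratios gave 2 each. Macrophage-scoring clusters between libraries (6 genes) gave 3 without cluster 13 and 1 with clusters weighted equally.

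Apoe in rod-like cells was 264 CPM with members among the variable genes, 693 CPM at resolution 0.5, 1332 CPM with separate clustering and 286 CPM with cells weighted equally in aCXCR2 (223 CPM). In NRS (261 CPM) it was 353 CPM at resolution 0.5, 249 CPM with another seed, 405 CPM with cells weighted equally and 332 CPM in rod-like cells with no UMI of C1q or S100a8 and S100a9 genes. The strict filter left no rod-like cluster and gave no value. The cause of these moves was not tested. Depth limits Lpl and Cd36, and Gpnmb and Spp1 in 43 NRS cells of cluster 3. Alternatives that changed the Gdf15 Ctsk cluster, left out clusters or shared barcodes, or weighted clusters were chosen after seeing the data.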

Other observations

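Outside the leukocyte classes, Apoe and Gpnmb were both high in 1 small cluster of cells of the eye itself. In that cluster, led by Ttr, Rgr and Rdh5, whose best marker score was retinal pigment epithelium (14 aCXCR2 and 7 NRS cells), Apoe stood at 6647 CPM in aCXCR2 and 7670 CPM in NRS, and Gpnmb at 626 and 5695 CPM. In a cluster led by Igfbp7, Sparc and Mgp (13 and 85 cells), Apoe stood at 404 and 4447 CPM, and Gpnmb had 0 UMIs in aCXCR2 and 68.7 CPM in NRS.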
